A study of Rattus norvegicus with 4 samples.

Results

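Kinesin, dynein and myosin genes were followed in INS-1 cells, an insulin-secreting line that derives from a rat insulinoma and serves as a model of pancreatic beta cells. The cells had been kept for 7 days in 22.4 mM glucose (n = 2 arrays) or in 11.2 mM glucose (n = 2 arrays), and total RNA of each sample was hybridized to an Affymetrix array. Both groups are the same line with no other treatment given in the labels, and the labels do not say whether replicates were separate cultures, so the spread that p-values rest on is that of these 4 arrays and may be technical only. Members were the probe sets whose single gene symbol begins like that of a kinesin (Kif followed by a digit or c), a kinesin light chain (Klc), a cytoplasmic dynein chain (Dync, Dynll, Dynlr, Dynlt) or a numbered myosin (Myo). These were 61 genes of 14557 named ones, each read by 1 of the table's 36685 probe sets. They comprised 9 mitotic kinesins, 10 transport kinesins, 3 kinesin light chains, 6 other kinesins, 7 larger dynein chains, 6 dynein light chains, 3 Dynll1-like loci and 17 myosins. Values are log2 signals as deposited, and every difference is 22.4 mM minus 11.2 mM on that scale. Array medians lay between 4.73 and 4.80.

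Motor proteins turn the energy of ATP into movement along the cytoskeleton. Most kinesins walk towards the plus ends of microtubules, and light chains and adaptors link kinesin-1 to its cargo. Cytoplasmic dynein carries cargo towards the minus ends, and a separate dynein, dynein-2, serves transport inside cilia. Myosins move on actin. In beta cells kinesin-1 brings insulin granules outward along microtubules, and myosin V acts on them in the actin layer under the membrane. A separate set of kinesins builds the spindle, moves chromosomes and completes cell division, and its genes are transcribed mainly late in the cell cycle.

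The beta cell identity of the samples was checked first. All 7 measured beta cell markers of 12 listed had signals above the median of all probe sets, and the brightest of them on average was the amylin gene Iapp. All 5 measured immune markers lay under that median, as did 5 of 7 stromal and endothelial markers and 4 of 5 acinar and ductal markers. Summed on the linear scale, the immune markers gave log2 values of 6.02 and 5.95 at 22.4 mM, against 5.96 and 6.03 at 11.2 mM. For the stromal and endothelial markers the sums were 7.00 and 7.04 at 22.4 mM, against 7.10 and 6.99 at 11.2 mM. Acinar and ductal markers gave 7.04 and 7.02 at 22.4 mM, against 6.99 and 6.80 at 11.2 mM. The beta cell markers gave 14.33 and 14.38 at 22.4 mM, against 14.62 and 14.50 at 11.2 mM, lower on both 22.4 mM arrays and highest on replicate 1 of 11.2 mM. The part of cell makeup in the results below was not tested.

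Replicate 1 of 11.2 mM stood apart from the other 3 arrays, and most of all in the mitotic kinesins. The mean absolute log2 difference over these 9 genes was 0.744 and 0.720 between the 22.4 mM arrays and that replicate, and 0.649 between it and replicate 2 of 11.2 mM. Among the other 3 arrays the same measure was 0.040 within 22.4 mM, and 0.129 and 0.107 between the 22.4 mM arrays and replicate 2 of 11.2 mM. Over the 52 other members, pairs with replicate 1 of 11.2 mM differed by 0.225, 0.252 and 0.196, and pairs without it by 0.103, 0.153 and 0.161. The gap was smaller over all probe sets, where pairs with replicate 1 of 11.2 mM differed by 0.246, 0.242 and 0.213. Pairs without it differed there by 0.172, 0.188 and 0.195. Differences that moved by over 1.5 times or turned in sign without this array are therefore also given without it.

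No motor gene passed the test over the whole table. Limma with Benjamini-Hochberg adjustment called 0 of the 61 genes, where the share called in the whole table was 0%, and Myo1e had the smallest adjusted p of the members, 0.364. At an unadjusted p under 0.05 there were 2 members with a positive difference and 5 with a negative one, where 4.36% of all probe sets were positive and 4.75% negative at that level. The groups did not overlap in 18 members that were higher and 21 that were lower at 22.4 mM, where 21.5% of named genes were higher and 23.1% lower without overlap. The median difference over the 61 genes was 0.0050, against -0.0038 over all named genes. A total of 47 members had a mean signal above the median of all probe sets, 4.76, and the other 14 were dimmer and not shown to be above background.

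**Figure D1:**
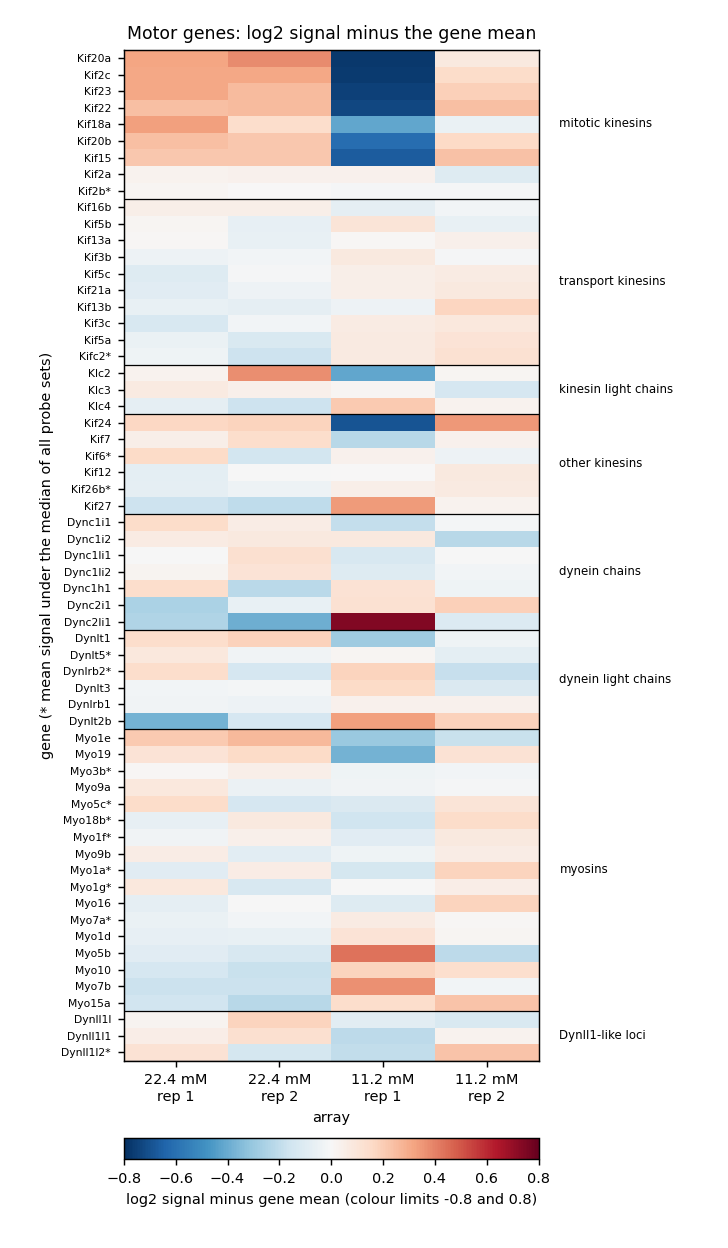
Log2 signal minus the gene's mean over the 4 arrays, in colour, for each of the 61 motor genes (rows, grouped by role) on each array (columns). The darkest blue block is made of mitotic kinesins on replicate 1 of 11.2 mM, where their median deviation was -0.66, and transport kinesins are pale on all arrays.

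Among kinesins of cell division all 9 measured genes had positive differences, with a median of 0.47. The groups did not overlap in 7 of the 9, all higher, against the 21.5% of named genes. This count includes the dim Kif2b, and among the 8 above the median signal it was 6. Some of these gaps were narrow. The lower 22.4 mM value and the higher 11.2 mM value of Kif22 were both 8.803 when rounded. In Kif20b they were 9.31 and 9.252, and in Kif23 8.835 and 8.769. Kif20a, which brings the chromosomal passenger complex to the midzone of the dividing cell, had log2 signals of 10.28 and 10.34 at 22.4 mM, against 9.19 and 10.05 at 11.2 mM. Both 22.4 mM arrays were above both 11.2 mM arrays, while the 11.2 mM replicates lay farther from each other than replicate 2 lay from 22.4 mM. Its difference was 0.69 (SE 0.29, 95% interval -0.08 to 1.46; limma adjusted p = 0.576), and 0.26 without replicate 1 of 11.2 mM. Kif2c, a kinesin that takes microtubules apart at centromeres, had 9.52 on both arrays of 22.4 mM, against 8.44 and 9.36 at 11.2 mM. Its difference was 0.62 (SE 0.31; limma adjusted p = 0.631), and 0.16 without that replicate. Kif23, the motor of the centralspindlin complex, had 8.89 and 8.83 at 22.4 mM, against 7.83 and 8.77 at 11.2 mM. Again a single array was low, and the difference of 0.56 (SE 0.32; limma adjusted p = 0.670) was 0.09 without it.

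Kif22, which binds chromosome arms, showed the same order most sharply. Its signals were 8.80 and 8.82 at 22.4 mM, against 7.83 and 8.80 at 11.2 mM, so that 3 arrays were level and 1 was low. The difference was 0.49 (SE 0.33; limma adjusted p = 0.721) with 4 arrays and 0.0065 without replicate 1 of 11.2 mM. Kif20b, a motor of cytokinesis, had 9.34 and 9.31 at 22.4 mM, against 8.49 and 9.25 at 11.2 mM. Its difference was 0.45 (SE 0.27; limma adjusted p = 0.680), and 0.07 without the low array. Kif15, which helps to keep the spindle poles apart, had 8.08 on both arrays of 22.4 mM, against 7.20 and 8.09 at 11.2 mM. Here the groups overlapped, and the difference of 0.43 (SE 0.31; limma adjusted p = 0.736) was -0.02 without replicate 1 of 11.2 mM.

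Kif18a was the exception in its spread. This kinesin, which damps the swings of chromosomes at the spindle equator, had 9.62 and 9.43 at 22.4 mM, against 8.87 and 9.23 at 11.2 mM. The groups did not overlap, and its 11.2 mM replicates were closer to each other than those of the 6 genes above. Its difference of 0.47 (SE 0.16, 95% interval 0.05 to 0.90; limma adjusted p = 0.509) came to 0.29 when replicate 1 of 11.2 mM was left out and to 0.65 when replicate 2 was. The relatives of Kif2c did not share the low array. Kif2a, which acts at spindle poles and also in nerve cells, had 7.68 and 7.69 at 22.4 mM, against 7.69 and 7.55 at 11.2 mM, with a difference of 0.06 (SE 0.10), or 0.13 without replicate 1 of 11.2 mM. Kif2b was dim, with 3.63 and 3.62 at 22.4 mM, against 3.61 and 3.602 at 11.2 mM.

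**Figure D2:**
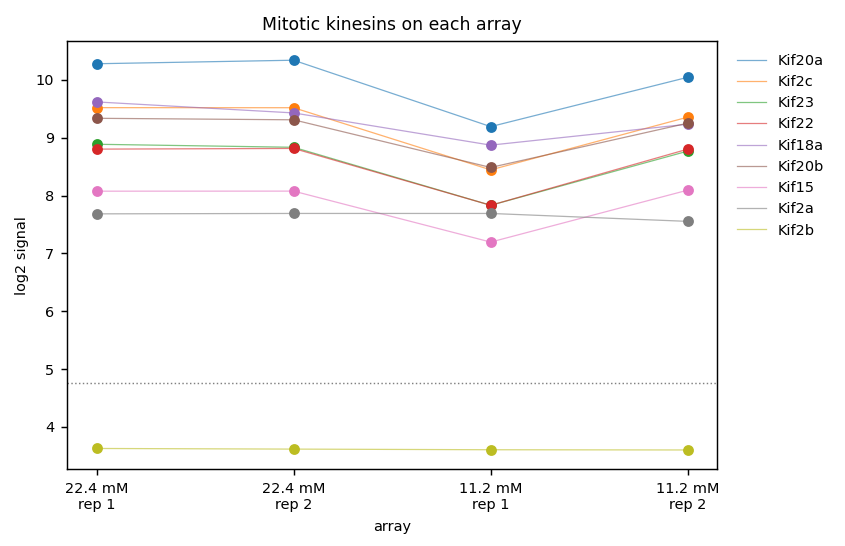
Log2 signal (vertical axis) of the 9 mitotic kinesins on each array (horizontal axis), with a line for each gene that joins its 4 values and a dotted line at the median signal of all probe sets, 4.76. The lines of 7 genes dip at replicate 1 of 11.2 mM, and those of Kif2a and Kif2b do not.

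Over the list, replicate 1 of 11.2 mM was the lowest of the 4 arrays in 7 of the 9 mitotic kinesins, where it was lowest in 31.2% of all named genes and in 17 of the 52 other motor genes. Replicate 1 minus replicate 2 had a median of -0.85 at 11.2 mM and of 0.0012 at 22.4 mM. When replicate 1 of 11.2 mM was left out the median over the 9 genes was 0.09, with 8 positive, and when replicate 2 was left out it was 0.88. Leaving out either array of 22.4 mM gave 0.44 and 0.49. The size of the difference between glucose levels in these genes thus depended on which 11.2 mM array was used, and its cause was not tested. In RNA from bulk cultures, fewer dividing cells and less kinesin RNA per cell cannot be told apart.

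Partners of these kinesins on the spindle and midzone were read on the same arrays. The list was chosen with earlier results of these data known, so it is a description and no independent support. Of 31 listed genes 18 were measured, all with positive differences and a median of 0.49, and replicate 1 of 11.2 mM was the lowest array in all 18. The groups did not overlap in 17, all higher, against 21.5% of named genes, and 0 passed over all probe sets. In Zw10, counted among them, the nearest values of the groups were 7.696 and 7.693. The kinetochore gene Spc25 had 8.39 and 8.47 at 22.4 mM, against 7.77 and 8.06 at 11.2 mM. Its difference was 0.51 (SE 0.14; limma adjusted p = 0.426), and 0.37 without the low array. Cep55, an abscission gene, and Ska1 and Ska3, which couple kinetochores to microtubules, had differences of 0.54, 0.46 and 0.47, and of 0.32, 0.27 and 0.26 without that array. The list's median without it was 0.12.

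Sequence before the genes was set beside these values, because promoters of mitotic genes often carry a cell cycle homology region (CHR) and CCAAT boxes. Windows from 250 bases before to 50 bases after the gene start came from RefSeq (build GRCr8), which had 9 windows for 8 of the mitotic kinesins. The letters searched were TTTGAA and TTCGAA for the CHR and CCAAT for the box, on both strands. At least 1 CHR match was found in 4 of the 9 windows (44.4%), against 19.7% of all 33469 windows, and in 4 of 41 windows of the other motor genes (9.76%). A CCAAT match was in 4 of the 9, against 37.5% of all windows. Both were in 3 of the 9, those of Kif22, Kif20b and Kif23, against 7.95% of all windows and 2 of 41 windows of the other motor genes (4.88%). The 6 other kinesins, which are not mitotic, had 5 windows, of which 2 held a CHR match and the same number held both, a share (40.0%) like that of the mitotic kinesins. The windows of Kif22, Kif20b and Kif23 are shown with that of Kif20a, the gene with the highest difference, which held 3 CCAAT matches and no CHR match. Each is printed along its gene's strand with the matches in capitals. These are TTTGAA or its reverse complement TTCAAA for the CHR, and CCAAT or its reverse complement ATTGG for the box. Kif22 lies on the minus strand (chr1:191080829-191081128), Kif20b on the plus strand (chr1:241840766-241841065), Kif23 on the minus strand (chr8:71320535-71320834) and Kif20a on the plus strand (chr18:26504172-26504471).
Kif22: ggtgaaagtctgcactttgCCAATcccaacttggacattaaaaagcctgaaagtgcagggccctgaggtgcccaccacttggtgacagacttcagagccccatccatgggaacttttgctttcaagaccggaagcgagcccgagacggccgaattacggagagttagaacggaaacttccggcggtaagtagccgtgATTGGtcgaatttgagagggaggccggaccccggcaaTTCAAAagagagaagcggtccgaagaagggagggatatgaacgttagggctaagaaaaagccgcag
Kif20b: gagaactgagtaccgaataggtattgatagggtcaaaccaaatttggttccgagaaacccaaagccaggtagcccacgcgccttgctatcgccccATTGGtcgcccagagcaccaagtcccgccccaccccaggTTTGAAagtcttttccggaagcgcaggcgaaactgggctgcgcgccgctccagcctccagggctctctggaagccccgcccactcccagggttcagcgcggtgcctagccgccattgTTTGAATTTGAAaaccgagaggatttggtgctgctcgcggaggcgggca
Kif23: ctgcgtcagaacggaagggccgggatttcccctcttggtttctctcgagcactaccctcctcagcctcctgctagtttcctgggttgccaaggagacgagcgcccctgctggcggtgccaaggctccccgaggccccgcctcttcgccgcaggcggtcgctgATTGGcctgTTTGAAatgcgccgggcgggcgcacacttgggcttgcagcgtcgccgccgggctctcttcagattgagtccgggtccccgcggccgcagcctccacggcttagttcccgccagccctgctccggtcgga
Kif20a: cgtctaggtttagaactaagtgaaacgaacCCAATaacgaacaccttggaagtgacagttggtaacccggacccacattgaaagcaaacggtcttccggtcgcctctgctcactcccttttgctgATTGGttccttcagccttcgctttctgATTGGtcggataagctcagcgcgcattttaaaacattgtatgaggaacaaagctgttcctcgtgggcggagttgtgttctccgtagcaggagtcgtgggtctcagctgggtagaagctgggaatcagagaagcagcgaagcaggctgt
In Kif23 the CCAAT match began at base -88 and the CHR match at base -79, counted from the gene start. In Kif20b a CHR match lay at -116, and 2 more stood next to each other from base 2 after the start. The windows of Kif18a, Kif2a and Kif2c held no match to these letters. A match is a description of the letters, and whether any factor binds there was not measured.

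Kinesins counted here as transport motors differed little and mostly in the other direction. Of the 10 measured, 9 had negative differences, from -0.05 to -0.20, and the list's median was -0.12. Both 22.4 mM arrays were below both 11.2 mM arrays in 8, against 23.1% of named genes, and 0 had an unadjusted p under 0.05. These 8 include the dim Kifc2. Kif5b, the widely expressed heavy chain of kinesin-1 and the motor of insulin granules, had 11.12 and 11.04 at 22.4 mM, against 11.21 and 11.05 at 11.2 mM. These groups overlapped, and the 95% interval of the difference, -0.05, ran from -0.33 to 0.24, with a value of 0.03 without replicate 1 of 11.2 mM. Kif5a, a kinesin-1 heavy chain known from neurons, had 5.71 and 5.65 at 22.4 mM, against 5.84 and 5.88 at 11.2 mM, a difference of -0.18 (SE 0.10; limma adjusted p = 0.653). Its groups did not overlap, and the difference was -0.20 without replicate 1 of 11.2 mM.

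Kif3c, a kinesin-2 motor, had 7.79 and 7.89 at 22.4 mM, against 7.98 and 7.99 at 11.2 mM. Kif21a, a kinesin-4 that curbs microtubule growth, had 9.80 and 9.85 at 22.4 mM, against 9.93 and 9.96 at 11.2 mM. In both genes the 11.2 mM arrays were level with each other and above 22.4 mM, with differences of -0.15 (SE 0.10) and -0.13 (SE 0.09). Kif16b, an endosome motor of the kinesin-3 family, was the 1 transport kinesin with a positive difference, with 7.61 on both arrays of 22.4 mM, against 7.49 and 7.54 at 11.2 mM. The remaining members were Kif13a, Kif13b, Kif3b, Kif5c and the dim Kifc2, with -0.05, -0.13, -0.07, -0.11 and -0.20. Without replicate 1 of 11.2 mM, Kif13b differed by -0.23 and Kif3b by -0.02. Whichever array was left out, the median over the 10 genes lay between -0.13 and -0.09. Mitotic and transport kinesins had medians of 0.47 and -0.12 with 4 arrays, and of 0.09 and -0.13 without replicate 1 of 11.2 mM. Members are not replicates, so no test was made between the lists.

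**Figure D3:**
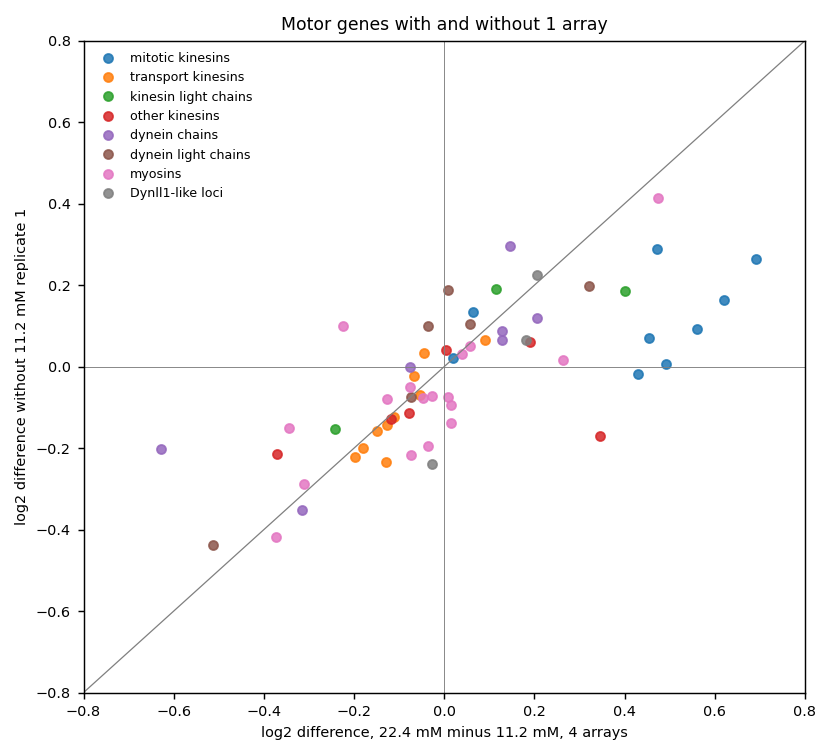
Log2 difference, 22.4 mM minus 11.2 mM, of the 61 motor genes with all 4 arrays (horizontal axis) and without replicate 1 of 11.2 mM (vertical axis), coloured by role, with a grey line of equal values. Both axes share 3 arrays. Mitotic kinesins at 0.43 to 0.69 on the horizontal axis lie at -0.02 to 0.29 on the vertical one, while transport kinesins stay near the line.

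Kinesin light chains, which hold cargo to kinesin-1, did not share a direction. Klc2 had 7.40 and 7.75 at 22.4 mM, against 6.96 and 7.39 at 11.2 mM. The groups were apart by less than the gap within either of them, and the difference was 0.40 (SE 0.20; limma adjusted p = 0.631), or 0.19 without replicate 1 of 11.2 mM. Klc3, best known from sperm tails, had 5.12 and 5.09 at 22.4 mM, against 5.06 and 4.91 at 11.2 mM, a difference of 0.115, or 0.19 without that replicate. Klc4 had 5.57 and 5.47 at 22.4 mM, against 5.85 and 5.67 at 11.2 mM, a difference of -0.24 (SE 0.11; limma adjusted p = 0.612), or -0.15 without replicate 1 of 11.2 mM. Among kinesin adaptors 12 of 22 listed genes were measured, 5 positive and 7 negative, with a median of -0.07 and 0 past the test. The smallest p in this list belonged to Hap1, the huntingtin-associated adaptor, with -0.33 (SE 0.13), and the others named were Kifbp with -0.25, Sybu with 0.23 and Fez1 with -0.28. Hap1 and Kifbp differed by -0.19 and -0.18 without replicate 1 of 11.2 mM.

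The 6 other kinesins serve cilia, centrioles or less known tasks. Kif12, which in mouse beta cells has been tied to antioxidant defence, was bright and level, with 10.37 and 10.45 at 22.4 mM, against 10.45 and 10.53 at 11.2 mM. Its difference of -0.08 had a 95% interval from -0.34 to 0.18. Kif27, a relative of the Hedgehog regulator Kif7, had 5.93 and 5.90 at 22.4 mM, against 6.44 and 6.13 at 11.2 mM. Both 22.4 mM values were below both 11.2 mM values, by -0.37 on average (SE 0.14; limma adjusted p = 0.541), and by -0.21 without replicate 1 of 11.2 mM. Kif7 itself had 5.78 and 5.87 at 22.4 mM, against 5.51 and 5.77 at 11.2 mM, a difference of 0.19, or 0.06 without that array. Kif24, a centriolar kinesin that limits the growth of cilia, was singled out after its values were seen. It had 7.33 and 7.34 at 22.4 mM, against 6.47 and 7.51 at 11.2 mM. The low array was again replicate 1 of 11.2 mM, and the difference of 0.35 (SE 0.35) was -0.17 without that array. Kif6 and Kif26b were dim, with 0.0050 and -0.12, and Kif6 had 0.04 without that array.

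Among the 7 larger chains of cytoplasmic dynein 4 had positive and 3 negative differences, with a median of 0.13. The groups did not overlap in 2 that were higher and 2 that were lower, against 21.5% and 23.1% of named genes. Dync1h1, the heavy chain that moves dynein-1, had 10.01 and 9.65 at 22.4 mM, against 9.98 and 9.83 at 11.2 mM. Its groups overlapped, and the difference of -0.08 (SE 0.16) ran from -0.49 to 0.34 in its 95% interval, with -0.0015 without replicate 1 of 11.2 mM. The intermediate and light intermediate chains of dynein-1 had positive differences, 2 of the 4 with overlap. Dync1i1, an intermediate chain best known from neurons, had 6.28 and 6.199 at 22.4 mM, against 5.95 and 6.12 at 11.2 mM, a difference of 0.21 (SE 0.11; limma adjusted p = 0.658), or 0.12 without that array. Dync1li2, a light intermediate chain that binds cargo adaptors, had 9.02 and 9.11 at 22.4 mM, against 8.89 and 8.97 at 11.2 mM. The differences of Dync1i2 and Dync1li1 were 0.15 and 0.13, both with overlap, and 0.30 and 0.06 without replicate 1 of 11.2 mM.

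The 3 measured genes counted here as particular to dynein-2, the motor of return transport in cilia, had negative differences. These 3 were grouped after their values were seen, so this is a description only. Light chains not counted as particular to it went both ways, with 0.32 for Dynlt1, 0.0076 for Dynlrb2, -0.04 for Dynlt3 and -0.07 for Dynlrb1. Dync2li1, its light intermediate chain, had 5.81 and 5.66 at 22.4 mM, against 6.79 and 5.94 at 11.2 mM. Replicate 1 of 11.2 mM was high here, and the difference of -0.63 (SE 0.30; limma adjusted p = 0.613) was -0.20 without it. Dync2i1, an intermediate chain, had 6.27 and 6.46 at 22.4 mM, against 6.65 and 6.72 at 11.2 mM. Its groups did not overlap, and the difference was -0.32 (SE 0.11; limma adjusted p = 0.528) with all arrays and -0.35 without replicate 1 of 11.2 mM. Dynlt2b, a light chain of dynein-2, had 7.06 and 7.30 at 22.4 mM, against 7.77 and 7.62 at 11.2 mM. This was the lowest adjusted p among the dynein genes, 0.416 by limma, with a difference of -0.51 (SE 0.13, 95% interval -0.86 to -0.17), and -0.44 without replicate 1 of 11.2 mM.

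Dynlt1, a light chain shared by many cargoes, had 10.84 and 10.88 at 22.4 mM, against 10.42 and 10.66 at 11.2 mM. It was higher on both 22.4 mM arrays, by 0.32 (SE 0.12; limma adjusted p = 0.550), and by 0.20 without replicate 1 of 11.2 mM. Dynlrb1, a roadblock-type light chain, had 10.67 and 10.66 at 22.4 mM, against 10.74 on both arrays of 11.2 mM, a difference of -0.07 (SE 0.09). Dynlt3 differed by -0.04 with overlap, and by 0.10 without replicate 1 of 11.2 mM. Dynlrb2 and Dynlt5 were dim, with 0.0076 and 0.06, and with 0.19 and 0.11 without that array. Among Dynll1-like loci, which resemble the light chain gene Dynll1 and may share signal with it and each other, RefSeq lists 2 as pseudogenes. Dynll1l had 6.62 and 6.77 at 22.4 mM, against 6.51 and 6.47 at 11.2 mM, and Dynll1l1 had 9.32 and 9.40 at 22.4 mM, against 9.06 and 9.30 at 11.2 mM. Their differences were 0.20 and 0.18, and 0.23 and 0.07 without replicate 1 of 11.2 mM. The remaining locus, the protein-coding Dynll1l2, was dim and differed by -0.03 with overlap, and by -0.24 without that array. Dynactin subunits and dynein regulators numbered 17 measured of 25 listed, with 11 positive, a median of 0.05 and 0 past the test. Of these Capza1, Actr1a, Dctn5 and Actr1b differed by 0.29, 0.30, 0.23 and 0.18, and by 0.14, 0.14, 0.10 and 0.13 without replicate 1 of 11.2 mM.

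Myosins held the member with the lowest p. Myo1e, a class I myosin of endocytosis and actin patches, had 7.86 and 7.91 at 22.4 mM, against 7.35 and 7.47 at 11.2 mM. The arrays of a group were close and the groups well apart, with a difference of 0.47 (SE 0.10, 95% interval 0.21 to 0.74), a 1.39-fold higher signal, and a limma adjusted p of 0.364. It was 0.41 without replicate 1 of 11.2 mM and between 0.41 and 0.53 whichever array was left out. Myo10, which builds filopodia, had 9.51 and 9.46 at 22.4 mM, against 9.82 and 9.77 at 11.2 mM. It was as steady in the other direction, with -0.31 (SE 0.09; limma adjusted p = 0.473), and -0.29 without that replicate. Myo15a, the myosin of hair cell stereocilia, had 4.999 and 4.930 at 22.4 mM, against 5.295 and 5.383 at 11.2 mM. Its difference was -0.37 (SE 0.10; limma adjusted p = 0.426), and its signals lay close to the median of all probe sets.

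Myo7b, a brush border myosin, had 6.72 on both arrays of 22.4 mM, against 7.25 and 6.87 at 11.2 mM. Replicate 1 of 11.2 mM was the high array, and the difference of -0.34 (SE 0.16; limma adjusted p = 0.600) was -0.15 without it. Myo5b, a motor of recycling endosomes, had 6.64 and 6.60 at 22.4 mM, against 7.17 and 6.52 at 11.2 mM. The groups overlapped, and the difference of -0.22 (SE 0.23) turned to 0.10 without that array. Of the 17 myosins 7 had positive and 10 negative differences, with a median of -0.04, and the groups did not overlap in 2 that were higher and 5 that were lower, against 21.5% and 23.1% of named genes. The 7 dim ones (Myo1a, Myo1f, Myo1g, Myo3b, Myo5c, Myo7a and Myo18b) differed by -0.08 to 0.06, and by -0.20 to 0.05 without replicate 1 of 11.2 mM. Myo1d, Myo9a, Myo9b and Myo16 differed by -0.13, 0.04, -0.03 and -0.07, and by -0.08, 0.03, -0.07 and -0.22 without that array. The mitochondrial myosin Myo19 had 6.76 and 6.80 at 22.4 mM, against 6.27 and 6.77 at 11.2 mM. As in the mitotic kinesins only replicate 1 of 11.2 mM was low, and the difference of 0.26 was 0.02 without it.

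**Figure D4:**
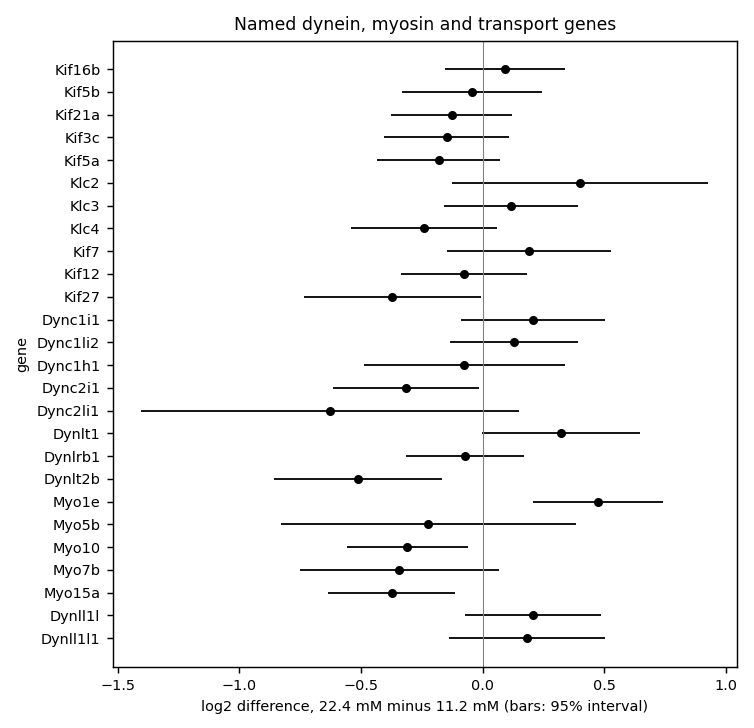
Log2 difference, 22.4 mM minus 11.2 mM (points, horizontal axis), with its 95% interval from limma (bars), for the named motor genes other than mitotic kinesins (vertical axis). The intervals of Kif27, Dync2i1, Dynlt2b, Myo1e, Myo10 and Myo15a do not reach 0, before any adjustment for the number of probe sets.

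Of myosin adaptors and light chains, the gene with the lowest p was Rab27a. Of 23 listed genes 15 were measured, 7 positive and 8 negative, with a median of -0.02 and 0 past the test. Rab27a, the small GTPase that recruits myosin Va to secretory granules, had 7.89 and 7.97 at 22.4 mM, against 8.59 and 8.57 at 11.2 mM. Replicates were level in both groups, and the difference of -0.65 (SE 0.10; limma adjusted p = 0.255) was -0.64 without replicate 1 of 11.2 mM. Myrip, which links Rab27a to myosins, had 7.13 and 7.10 at 22.4 mM, against 7.31 and 7.32 at 11.2 mM, a difference of -0.20 (SE 0.09; limma adjusted p = 0.612). Gipc1, an adaptor of myosin VI, and Calml4, a myosin light chain, differed by 0.35 and 0.22, and by 0.22 and 0.12 without replicate 1 of 11.2 mM.

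Tubulins, the subunits of the microtubule track, had positive differences in all 11 measured genes of 16 listed, against 48.9% of named genes. Their median was 0.29, 0 passed the test, and 2 (Tubb6 and Tubb2b) were dim. Replicate 1 of 11.2 mM was the lowest array in 9 of the 11, and without it the median was 0.05, with 8 positive. Tubb3, a beta tubulin of nerve and endocrine cells, had 8.07 and 8.25 at 22.4 mM, against 7.53 and 7.65 at 11.2 mM. Its difference of 0.57 (SE 0.12; limma adjusted p = 0.342) was 0.51 without that array. For Tubb2a, Tube1 and Tuba4a the differences were 0.43, 0.41 and 0.59 with all arrays, and 0.29, 0.24 and 0.15 without it.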

How the data were processed

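The authors deposited 1 table of log2 signals for 36685 probe sets on 4 arrays. Base 2 was inferred from the range of values (2.23 to 13.2). Their normalization, background correction and software were not given in the sources used here. The values were used as deposited, and the number of arrays limits the precision. Symbols came from the platform annotation, and the Entrez identifiers of all 61 members were found in RefSeq, with 0 symbols changed. Members, role lists and partner lists were chosen with earlier results of these data known, and the Dynll1-like group was added later. 1 kinesin is not reported here. Kif1a, Klc1, Dynll1, Myo5a, Myo1c and Myo6 were to be named where measured, and no probe set used here named them.

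Glucose groups were compared across all probe sets with limma 3.58.1 in R 4.3.3 (lmFit, eBayes, two-sided, 2 residual degrees of freedom, no block), with Benjamini-Hochberg adjustment and a threshold of 0.05. Named were all mitotic kinesins, a fixed set of motor genes, and 4 genes of each of 5 partner lists. In other roles up to 3 bright members a direction without overlap were named by smallest p. The code was tested on simulated data. The labels state no pairing of arrays by replicate number. The correlation of replicate 1 minus replicate 2 between the groups was -0.08, a single value that cannot exclude a pairing. Alternatives left out an array or changed the block, normalization, variance model, probe sets tested or rule for genes with several probe sets.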

Additional observations from a re-analysis of the deposited data

How the results depend on the processing

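In every setting tried limma called 0 of the 61 motor genes, and the lowest adjusted p of a member was 0.141, for Myo1e among probe sets with 1 gene symbol, of which 62 of 14824 were called. Members at an unadjusted p under 0.05 numbered 2 with a positive and 5 with a negative difference. With 1 array left out these counts ran from 1 to 12 and from 0 to 7, the highest of both without replicate 2 of 11.2 mM, where 5709 of 36685 probe sets had such a p, against 3344 with 4 arrays and 2906, 2139 and 2114 without replicate 1 of 11.2 mM and replicates 1 and 2 of 22.4 mM. The corresponding totals were 1912 of 14824 with 1 symbol, 3340 with quantile normalization, 3429 with the trend and 2958 with the block. Among probe sets with 1 symbol the positive count was 4, and with quantile normalization or an intensity trend the negative count was 3 each. With the replicate block the counts were 3 and 4, and no call changed. The block cannot change a difference here, because each group holds both replicate numbers. Medians of the lists with 1 array left out were 0.092 to 0.88 for mitotic kinesins, -0.13 to -0.0925 for transport kinesins, 0.0399 to 0.19 for kinesin light chains, -0.12 to 0.0145 for other kinesins. They were -0.0034 to 0.15 for larger dynein chains, -0.12 to 0.10 for dynein light chains, -0.0764 to 0.0492 for myosins, 0.12 to 0.75 for spindle partners, and 0.0351 to 0.15 for dynein regulators, -0.17 to -0.039 for kinesin adaptors, 0.0493 to 0.57 for tubulins. Kinesin light chains had 0.13 with quantile normalization. Among bright probe sets the medians were 0.056 for other kinesins, -0.10 for myosins and 0.064 for myosin adaptors. Signs turned in 5 named genes when 1 array was left out, with ranges of -0.018 to 0.88 for Kif15, -0.0032 to 0.13 for Kif2a, -0.12 to 0.0343 for Kif5b, -0.26 to 0.10 for Dync1h1, -0.55 to 0.10 for Myo5b. With an arm of 1 array, that array is assumed to vary like the others. The cause of these shifts was not tested. Signal over background is unknown, and the 14 dim members were not shown to be above it.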
